A study of Mus musculus with 7 samples.

Results

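Replication-dependent histone cluster genes were defined as the genes of the raw count table whose symbol begins with Hist1h, Hist2h, Hist3h or Hist4h, which gave 68 of 24062 genes. They were followed in whole spleens of 2 groups of mice aged 2 to 3 months. The mutant group consisted of 3 enlarged spleens from mice of genotype Vav1-iCre;Brca1F22-24/F22-24, in which Cre, the recombinase, is driven by Vav1 in blood cells and Brca1 exons 22 to 24 are flanked by recombination sites. The wild-type group consisted of 4 spleens from C57BL6 mice with the genotype Brca1+/+. Recombinase, Brca1 allele, spleen enlargement and any difference in strain go together with the group, and their effects cannot be told apart. Each library came from its own spleen, per the labels, and p-values reflect only how much these spleens vary within a group.

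Histone genes of these clusters make the bulk histones that package newly copied DNA, and their transcripts accumulate when cells pass through S phase. The core histones H2A, H2B, H3 and H4 form the nucleosome, and the linker histone H1 binds the DNA between nucleosomes. Most of their messenger RNAs have no poly(A) tail and end instead just after a conserved stem-loop, which is bound by the protein Slbp, although some of the genes can also give longer polyadenylated transcripts. The replacement histones lie elsewhere in the genome, carry poly(A) tails and are made outside S phase as well.

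The stem-loop is shown because it is the feature that sets these messages apart, and because in some genes the annotated transcript runs on past it. In the GENCODE vM21 transcripts (GRCm38), at least 1 transcript of 44 of the 68 genes held a 16-base stem-loop with a 6-base stem and a 4-base loop. Capitals mark the stem-loop, written 5′ to 3′ as DNA.

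Hist3h2a: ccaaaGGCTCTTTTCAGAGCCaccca
Hist1h1c: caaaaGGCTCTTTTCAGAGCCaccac
Hist1h4i: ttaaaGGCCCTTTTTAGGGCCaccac
Hist1h4d: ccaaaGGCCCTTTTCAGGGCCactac
Hist1h2bb: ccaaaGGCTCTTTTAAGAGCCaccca
Hist1h2bj: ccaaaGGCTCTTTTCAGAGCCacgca

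The core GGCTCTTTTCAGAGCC occurred in 26 genes, and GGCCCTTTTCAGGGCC in 7, all of them H4 genes. The core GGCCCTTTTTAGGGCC was found in Hist1h4i and Hist2h4. The annotated transcripts of Hist1h2bb and Hist1h2bj ended 23 bases after the stem-loop. The transcripts of Hist1h4i, Hist1h1c and Hist3h2a ran on for 330, 840 and 1643 bases. No match was present in the transcripts of Hist2h2be, Hist1h2bc and Hist1h1b, which says only that these letters were not in those models.

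A poly(A) signal (AATAAA or ATTAAA) lay within the last 40 bases of at least 1 annotated transcript in 17 of the 68 genes. It was present in 5 of the 6 genes that averaged 1 CPM (counts scaled to library size with TMM factors) or more over the 7 spleens, all but Hist1h2bc, and in 12 of the 62 genes below that level. The last 30 bases are shown for genes of the first kind, with the signal in capitals. The Hist3h2a signal lay 34 bases from the end, outside such a window. The deposited spans of Hist3h2a, Hist1h1c, Hist1h4i and Hist3h2ba cover 509, 726, 404 and 463 bases. Their transcripts are longer, at 2146, 1560, 727 and 614 bases. The counts may therefore not include these ends. The longest transcripts had a median of 1358 bases in the 6 genes at 1 CPM or more and 526 bases in the other 62. A short model, such as the 381 bases of Hist1h2bl, may end before a signal or stem-loop. A missing match thus does not show that a gene lacks either.

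Hist2h2be: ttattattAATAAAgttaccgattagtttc
Hist1h1c: ttctAATAAAaagcgtttagttttcattca
Hist1h4i: tctgtttacATTAAAagtattctatgctaa
Hist3h2ba: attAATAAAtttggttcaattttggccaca

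Whether the libraries were made from poly(A)-selected RNA is not given in the sources used here, which name total RNA and a standard Illumina protocol. The 68 genes held 14651 counts in all, 0.00528% of all counts. Library totals were 51680976, 30660980 and 35670644 counts in the mutant spleens and 26889712 to 63612532 counts in the wild-type spleens, of which the histone cluster genes took 3042, 921 and 1172 counts in the mutant and 1786, 1870, 2554 and 3306 counts in wild type. A count of 0 in a library allows up to 3 counts, or 0.0619 to 0.106 CPM in the mutant and 0.0396 to 0.111 CPM in wild type, counting error only. Fewer transcribing cells and less RNA per cell cannot be told apart in such bulk samples.

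Brca1 stood at 67.5, 47.1 and 42.7 CPM in mutant 1 to 3, against 46.2, 72.8, 15.7 and 20.2 CPM in wild type 1 to 4, and counts over the whole gene cannot show a loss of exons 22 to 24. Cell type markers differed widely between the groups, and B cell genes, which mark spleen, were high in every wild-type spleen. Of 14 immature T cell markers 13 were higher in the mutant, and all 12 B cell markers were lower, with median log2 fold changes of 2.93 and -5.28. Lower calls also covered 6 of 7 plasma cell, 6 of 8 NK cell, 8 of 14 myeloid, 5 of 7 megakaryocyte and 4 of 8 stromal markers, and 1 marker each of the plasma cell (Sdc1), NK cell (Gzma) and stromal (Pdgfrb) lists was higher. Without wild type 1 and 2, lower calls numbered 3 for plasma cell and 0 for megakaryocyte markers and no stromal marker (0) was higher, and without wild type 2 alone 2 megakaryocyte markers were lower. None of 19 erythroid markers was called in either direction with all spleens (0 of 19 by edgeR), while 1 was called higher without wild type 2 and 5 without wild type 1 and 2. Over the 19, the median log2 CPM, taken against the wild-type mean, was 2.23, -0.56 and 0.04 in mutant 1 to 3, against 1.10, 2.12, -1.63 and -1.40 in wild type 1 to 4. Mutant 1 and wild type 1 and 2 thus stood above the others in red cell precursor genes, and called results that changed without them are given both ways.

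Of the 68 histone cluster genes, 16 passed the filter on low counts and were tested, and 52 did not pass, among them 7 without a count in any spleen. In the mutant, 1 tested gene rose (Hist1h1b) and 2 fell (Hist1h2bc and Hist3h2a), by edgeR's quasi-likelihood test with a Benjamini-Hochberg adjusted p under 0.05 over all 15188 genes tested. These 3 calls are 18.8% of the 16 genes. Across all genes tested 57.4% were called, 28.5% higher and 28.9% lower in the mutant, and among genes with a mean under 1 CPM 50.6% were called. An unadjusted p under 0.05 was reached by 6 of the 16. The log2 fold change (mutant minus wild type) was positive for 10 and negative for 6, with a median of 0.80, beside -0.02 for all genes tested. Leaving out 1 spleen gave 0 to 5 higher and 0 to 4 lower calls, and leaving out wild type 1 and 2 gave 6 higher and 0 lower. The fit without wild type 1 and 2 tested 20 histone genes and called 38.3% of all genes. Its higher calls were Hist1h1b, Hist1h1d, Hist2h2bb, Hist1h2bm, Hist1h1a and Hist1h4b. The last 3 did not pass the filter with all spleens. Hist1h2bm was also called higher without wild type 1 alone and without mutant 2, and Hist1h1a without mutant 2. Fits without 1 spleen tested 14 to 20 histone genes. The median was then 0.45 without wild type 3, 0.50 without wild type 4, 0.55 without wild type 1, 1.23 without wild type 2 and 1.84 without wild type 1 and 2. The sign followed the level: 5 of the 6 genes averaging 1 CPM or more had negative values and 9 of the 10 tested genes below it had positive ones, a split chosen after the values were seen. The filter admits a low gene that reaches a set level in 3 spleens, the size of the mutant group. Genes high in the mutant alone can thus pass, and the values below 1 CPM are not free of the filter. Hist2h4, with mutant and wild-type means of 0.293 and 0.317 CPM, was not tested. With no filter, the median was 0.96 over 61 histone genes, beside -0.09 for all genes. Hist1h2bj and Hist1h2bb had all mutant values above wild type, and Hist1h2bc and Hist3h2a had all below. The groups thus did not overlap for 4 of the 16 tested genes, and for 61.7% of all genes tested. That count was 8 without mutant 2, 9 without wild type 1 and 11 without wild type 1 and 2. These fits tested 20, 14 and 20 histone genes. Groups of fewer spleens separate more easily, and the share over all genes is not given for these fits. With all spleens, the untested Hist1h2bm, Hist1h2bk, Hist1h2ag, Hist1h3e and Hist1h1a also had all mutant values above wild type. They held 17 to 58 counts each. No untested histone gene had all mutant values below, and the share over all untested genes is not given.

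**Figure D1:**
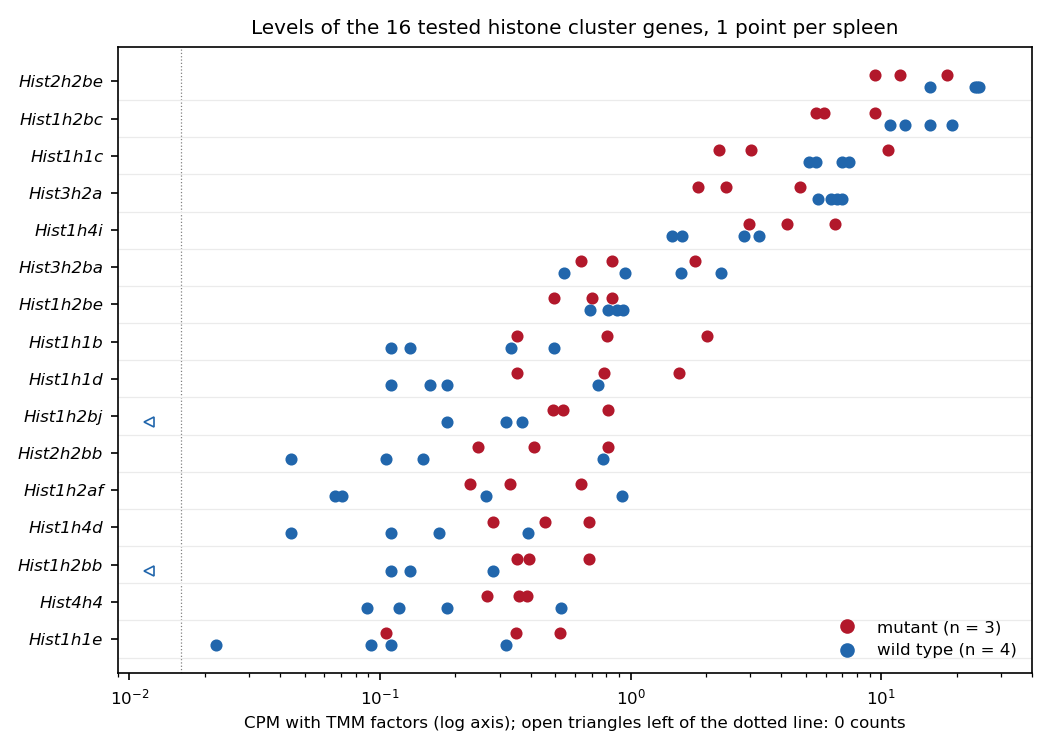
CPM with TMM factors (log axis) of the 16 tested histone cluster genes in 3 mutant spleens (red, upper point row of each gene) and 4 wild-type spleens (blue, lower point row), 1 point per spleen, with open triangles for 0 counts. Hist1h2bc and Hist3h2a show all mutant points left of the wild-type points, and Hist1h2bj and Hist1h2bb all mutant points to the right.

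The genes fall into 4 genomic clusters (mm10). The Hist1 cluster on chromosome 13, from 21715712 to 23934913, held 54 genes, of which 11 were tested. The Hist2 cluster on chromosome 3, from 96219915 to 96270192, held 10 genes with 2 tested, and the Hist3 cluster on chromosome 11, from 58948910 to 58955192, held 3 with 2 tested. Hist4h4 stood alone on chromosome 6, from 136803992 to 136804431. By the class in the symbol, 6 genes were H1, 18 H2A, 19 H2B, 12 H3 and 13 H4, and 4, 2, 7, 0 and 3 of them were tested. The H2B genes include Hist3h2bb-ps, a pseudogene by its symbol.

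Read sharing limits single genes. Over all annotated transcripts of a gene, the share of 50-base words found in another cluster gene had a median of 46.4% over the 68 genes, of 13.25% over the tested and of 54.35% over the untested ones. Some of these transcripts are far longer than the deposited span, as in Hist1h1d (7425 against 777 bases) and Hist3h2a (2146 against 509 bases). The share within the counted part can therefore be higher. H2A genes had the highest class median, 73.0%, followed by H3 with 57.25%, H2B with 40.1% and H4 with 39.5%, while H1 genes stood at 1.105%. How reads with several positions were counted is not given in the sources used here. Hist1h4m and Hist1h4n, Hist2h3c1 and Hist2h3c2, and Hist2h2aa1 and Hist2h2aa2 had identical counts in every spleen and lie within spans that overlap, as 10 of the genes do. Hist1h2bq, Hist1h2br, Hist1h2ao and Hist1h2ap, whose spans overlap each other and Hist1h4m and Hist1h4n, were at 0 counts everywhere. Counts of all these genes are uncertain.

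Among the H2B genes, Hist1h2bc fell and the gene with the most reads, Hist2h2be, did not pass the test. Hist2h2be (chromosome 3, 96221120 to 96223738) stood at 18.25, 9.45 and 11.9 CPM in mutant 1 to 3, against 24.2, 24.7, 23.6 and 15.7 CPM in wild type 1 to 4. Mutant 1 lay within the wild-type range and the others below it. The log2 fold change was -0.74 (SE 0.28, edgeR adjusted p = 0.0523), and it crossed the threshold without mutant 1 (-0.96, adjusted p = 0.0116) and without wild type 4 (-0.88, adjusted p = 0.0342). It was also called lower with RLE size factors (adjusted p = 0.0496), with library size alone (adjusted p = 0.0190), among genes averaging 1 CPM or more (adjusted p = 0.0421) and by DESeq2 (adjusted p = 0.0279), in all in 6 of 15 alternatives. None of its 50-base words was shared with another cluster gene (0%).

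Hist1h2bc (chromosome 13, 23684198 to 23692480, a span that includes an intron) stood at 9.46, 5.50 and 5.93 CPM in the mutant, against 12.4, 19.3, 15.6 and 10.9 CPM in wild type. All 3 mutant spleens were below all 4 wild-type spleens. Its log2 fold change was -1.06 (SE 0.30, edgeR adjusted p = 0.0170). The call was lost without mutant 2 (-0.94, adjusted p = 0.0603) and without wild type 1 and 2 together (-0.93, adjusted p = 0.108), and it held in 12 of 15 alternatives.

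Of the other tested H2B genes, none was called. Hist3h2ba (chromosome 11, 58948910 to 58949372) stood at 1.82, 0.635 and 0.847 CPM in the mutant, against 1.59, 2.30, 0.952 and 0.541 CPM in wild type, with a log2 fold change of -0.25 (SE 0.57, edgeR adjusted p = 0.728). Hist1h2be stood at 0.701, 0.494 and 0.847 CPM in the mutant, against 0.884, 0.815, 0.929 and 0.687 CPM in wild type. The ranges of both genes overlapped between the groups. Hist1h2bj stood at 0.536, 0.811 and 0.488 CPM in the mutant, against 0.318, 0.370, 0 and 0.185 CPM in wild type, and Hist1h2bb at 0.392, 0.353 and 0.684 CPM in the mutant, against 0.283, 0.111, 0 and 0.132 CPM in wild type. In both, every mutant spleen was above every wild-type spleen. Their log2 fold changes were 1.56 (SE 0.80, edgeR adjusted p = 0.132) and 1.91 (SE 0.78, edgeR adjusted p = 0.0683), and without wild type 1 Hist1h2bb passed the threshold (2.47, adjusted p = 0.0452). Hist2h2bb overlapped between the groups, with a log2 fold change of 0.97 (SE 0.90, edgeR adjusted p = 0.382) with all spleens. The value was 2.60 without wild type 1 and 2 (adjusted p = 0.0438), 0.46 without mutant 3 (adjusted p = 0.727), 0.57 without wild type 3 (adjusted p = 0.608) and 0.64 without wild type 4 (adjusted p = 0.608).

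Summed over its 19 genes, H2B came to 33.2, 18.5 and 22.6 CPM in the mutant, against 41.1, 48.5, 41.5 and 28.7 CPM in wild type, a log2 ratio of the group means of -0.69. Mutant 1 overlapped wild type 4. Hist2h2be and Hist1h2bc held 5123 and 3200 of the 9347 counts in this sum, which therefore says little about the other H2B genes. Untested H2B genes included Hist1h2bm with 18, 8 and 14 counts in the mutant and 5, 2, 0 and 4 counts in wild type, and Hist1h2bk with 13, 3 and 1 counts in the mutant and 0, 0, 0 and 1 counts in wild type. Hist1h2ba, a testis histone, had 0 counts in every spleen.

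Of the H2A genes, Hist3h2a was the one called, and it fell. Hist3h2a (chromosome 11, 58954684 to 58955192) stood at 4.74, 2.40 and 1.86 CPM in the mutant, against 6.29, 6.96, 6.68 and 5.60 CPM in wild type. The wild-type spleens were close together and the mutant spleens were spread below them. The log2 fold change was -1.08 (SE 0.35, edgeR adjusted p = 0.0312). The call was lost on leaving out mutant 2 (adjusted p = 0.0915), mutant 3 (adjusted p = 0.0582), wild type 1 (adjusted p = 0.0656), wild type 2 (adjusted p = 0.0719), wild type 3 (adjusted p = 0.0675) or wild type 1 and 2 together (adjusted p = 0.153), with log2 fold changes of -0.83 to -1.10 among these fits.

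The second tested H2A gene, Hist1h2af, was not called and had no common level in wild type. It stood at 0.330, 0.635 and 0.228 CPM in the mutant, against 0.0707, 0.926, 0.0664 and 0.264 CPM in wild type (log2 fold change 0.31, SE 0.89, edgeR adjusted p = 0.785). The next genes by level, Hist1h2ae and Hist2h2ac, were not tested. Hist1h2ae had 20, 3 and 2 counts in the mutant and 2, 0, 1 and 12 counts in wild type, and Hist2h2ac had 5, 3 and 3 counts in the mutant and 11, 0, 0 and 3 counts in wild type. In each gene 1 or 2 spleens held most of the counts. Over 18 genes the H2A sum was 6.45, 3.63 and 2.54 CPM in the mutant, against 7.25, 8.11, 7.04 and 6.23 CPM in wild type, with mutant 1 inside the wild-type range and a log2 ratio of -0.77. Hist3h2a held 1447 of the 1708 counts in this sum, which therefore says little about the other H2A genes. The testis gene Hist1h2aa had 0 counts in every spleen.

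Of the 4 tested H1 genes, Hist1h1b, Hist1h1d and Hist1h1e had positive log2 fold changes and Hist1h1c a negative one. Only Hist1h1b was called. Hist1h1b (chromosome 13, 21779831 to 21780625), a linker histone gene, rose: it stood at 0.804, 0.353 and 2.02 CPM in the mutant, against 0.495, 0.333, 0.111 and 0.132 CPM in wild type. Mutant 2 lay below wild type 1, so the groups overlapped. The log2 fold change was 2.06 (SE 0.72, edgeR adjusted p = 0.0401), on 149 counts in all. It was 1.24 without mutant 3 (adjusted p = 0.161), 2.19 without wild type 2 (adjusted p = 0.0634), 1.77 without wild type 3 (adjusted p = 0.0974) and 1.78 without wild type 4 (adjusted p = 0.104), so each of these 4 fits lost the call. Without wild type 1 and 2 it was 3.08 (adjusted p = 0.0385), and with wild type 1 alone left out 2.53 (adjusted p = 0.0330).

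Hist1h1c (chromosome 13, 23738806 to 23739531) stood at 10.7, 3.03 and 2.25 CPM in the mutant, against 7.42, 6.96, 5.16 and 5.52 CPM in wild type. Mutant 1 was above every wild-type spleen and mutant 2 and 3 were below every one of them. The log2 fold change was -0.23 (SE 0.53, edgeR adjusted p = 0.734), and without mutant 1 it was -1.16 (adjusted p = 0.0108). Mutant 1 was also the mutant spleen with the highest erythroid median (2.23, against -0.56 and 0.04 in the other mutants), and the part of these cells in the Hist1h1c level was not tested.

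Hist1h1d stood at 0.784, 0.353 and 1.56 CPM in the mutant, against 0.742, 0.185, 0.111 and 0.158 CPM in wild type, with a log2 fold change of 1.66 (SE 0.75, edgeR adjusted p = 0.0931). Wild type 1 lay apart from the other wild-type spleens, and without it the value was 2.56 (adjusted p = 0.0153), while without mutant 3 it was 1.05 (adjusted p = 0.294) and without wild type 1 and 2 together 2.70 (adjusted p = 0.0403). Hist1h1e, the fourth tested H1 gene, was at 0.351, 0.106 and 0.521 CPM in the mutant, against 0.318, 0.111, 0.0221 and 0.0924 CPM in wild type (log2 fold change 1.38, SE 0.78, edgeR adjusted p = 0.165). Hist1h1a was not tested, with 19, 6 and 18 counts in the mutant and 5, 2, 3 and 5 counts in wild type. The testis linker histone gene Hist1h1t had 0 counts in all mutant spleens and 1, 0, 0 and 1 counts in wild type. The sum of the 6 H1 genes was 13.01, 4.05 and 6.94 CPM in the mutant, against 9.19, 7.66, 5.47 and 5.98 CPM in wild type. Its log2 ratio was 0.18 with all spleens and -0.29 without mutant 1. Hist1h1c held 1722 of the 2126 counts in this sum, which therefore says little about the other H1 genes.

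No H4 gene was called by edgeR (0 of 3 tested), although the class sum separated the groups, and DESeq2 and limma-voom called Hist1h4i higher (adjusted p = 0.0242 and 0.0440). Hist1h4i (chromosome 13, 22040959 to 22041362) stood at 6.52, 4.20 and 2.96 CPM in the mutant, against 2.83, 3.26, 1.46 and 1.60 CPM in wild type. Mutant 3 fell within the wild-type range and the others lay above it. The log2 fold change was 1.01 (SE 0.41, edgeR adjusted p = 0.0661), and 1.24 without mutant 3 (adjusted p = 0.0400). Hist1h4d stood at 0.454, 0.282 and 0.684 CPM in the mutant, against 0.389, 0.111, 0.0443 and 0.172 CPM in wild type, with a log2 fold change of 1.45 (SE 0.64, edgeR adjusted p = 0.0862) and of 2.03 without wild type 1 (adjusted p = 0.0290). Hist4h4 stood at 0.268, 0.388 and 0.358 CPM in the mutant, against 0.530, 0.185, 0.0885 and 0.119 CPM in wild type. Its highest value was in wild type 1, and its log2 fold change was 0.63 (SE 0.63, edgeR adjusted p = 0.419). It was 1.65 without wild type 1 and 2 (adjusted p = 0.0605), 0.33 without wild type 3 (adjusted p = 0.686) and 0.36 without wild type 4 (adjusted p = 0.676). Among the untested genes, Hist2h4 had 7, 7 and 15 counts in the mutant and 17, 7, 10 and 14 counts in wild type, and Hist1h4b had 24, 3 and 9 counts in the mutant and 6, 2, 0 and 3 counts in wild type. Summed over 13 genes, H4 came to 8.72, 5.61 and 5.50 CPM in the mutant, against 5.27, 4.52, 2.12 and 2.43 CPM in wild type, a log2 ratio of 0.88 that was 1.53 without wild type 1 and 2. All mutant sums were above all wild-type sums, with mutant 3 close to wild type 1. Hist1h4i held 881 of the 1302 counts in this sum.

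All 12 H3 genes were too low to test, and the 33 counts of Hist1h3d were the most that any of them held. Hist1h3g had 17, 2 and 5 counts in the mutant and 0, 3, 2 and 2 counts in wild type, and Hist1h3c had 13, 7 and 1 counts in the mutant and 1, 0, 0 and 2 counts in wild type. In both, mutant 1 held the most counts. Hist1h3e had 7, 4 and 2 counts in the mutant and 0, 0, 0 and 4 counts in wild type, whereas Hist1h3d had 8, 1 and 1 counts in the mutant and 3, 3, 10 and 7 counts in wild type. Hist2h3b had 6, 0 and 4 counts in the mutant and 0 in all wild-type spleens. The H3 sum was 1.32, 0.705 and 0.619 CPM in the mutant, against 0.354, 0.407, 0.420 and 0.330 CPM in wild type. The groups did not overlap in this sum (log2 ratio 1.22), which rests on 168 counts.

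Levels can be compared between genes only per length, and here per kilobase of the deposited span, leaving out Hist1h2bc and Hist1h2be, whose spans hold an intron. Hist1h4i stood at 11.3 CPM per kilobase in the mutant and 5.66 in wild type, and Hist3h2a at 5.89 in the mutant and 12.5 in wild type. On this scale Hist1h4i was the highest of these genes in the mutant and Hist3h2a in wild type. Hist1h1c stood at 7.33 CPM per kilobase in the mutant and 8.63 in wild type, Hist2h2be at 5.04 in the mutant and 8.41 in wild type, and Hist3h2ba at 2.37 in the mutant and 2.90 in wild type. Hist1h1b, the gene that rose, was at 1.33 CPM per kilobase in the mutant and 0.337 in wild type.

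**Figure D2:**
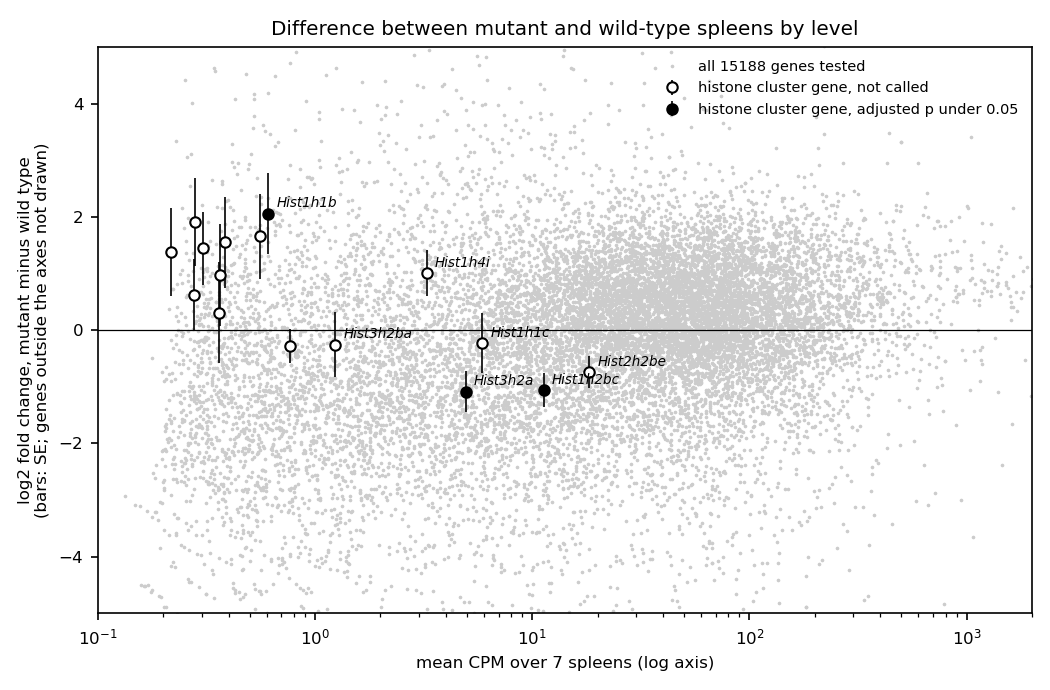
Log2 fold change, mutant minus wild type, against mean CPM over the 7 spleens (log axis) for all 15188 genes tested (grey points; genes outside the axes not drawn) and for the 16 histone cluster genes (circles with SE bars, filled where adjusted p was under 0.05). Of the 6 histone genes at or above 1 CPM, Hist1h4i alone lies above 0, and of the 10 below it, Hist1h2be alone lies below 0.

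The total of all 68 genes hid these opposite values. It was 62.7, 32.5 and 38.2 CPM in the mutant, against 63.1, 69.2, 56.5 and 43.7 CPM in wild type, with mutant 1 inside the wild-type range and a log2 ratio of -0.39. The ratio was -0.64 without mutant 1, -0.23 without mutant 2 and -0.17 without wild type 1 and 2. The 6 genes averaging 1 CPM or more held 86.7% of the reads of the family and summed to 51.5, 25.2 and 25.7 CPM in the mutant, against 54.8, 63.4, 53.5 and 39.8 CPM in wild type. Mutant 2 and 3 lay below every wild-type spleen and mutant 1 did not. The other 62 genes held 13.3% of the reads and summed to 11.3, 7.26 and 12.4 CPM in the mutant, against 8.38, 5.85, 2.99 and 3.84 CPM in wild type. In that sum wild type 1 and 2 stood above wild type 3 and 4, and wild type 1 was above mutant 2. The log2 ratio was 0.97 with all spleens and 1.59 without wild type 1 and 2.

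Division markers also set wild type 1 and 2 apart from wild type 3 and 4. The median of 40 S phase genes, set against the wild-type mean, was 1.85, 2.08 and 1.91 on the log2 scale in mutant 1 to 3, against 0.41, 0.67, -0.69 and -0.41 in wild type 1 to 4. Wild type 1 and 2 were thus also the wild-type spleens with more S phase transcripts, as well as more erythroid ones. The part of either in the histone sums was not tested.

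**Figure D3:**
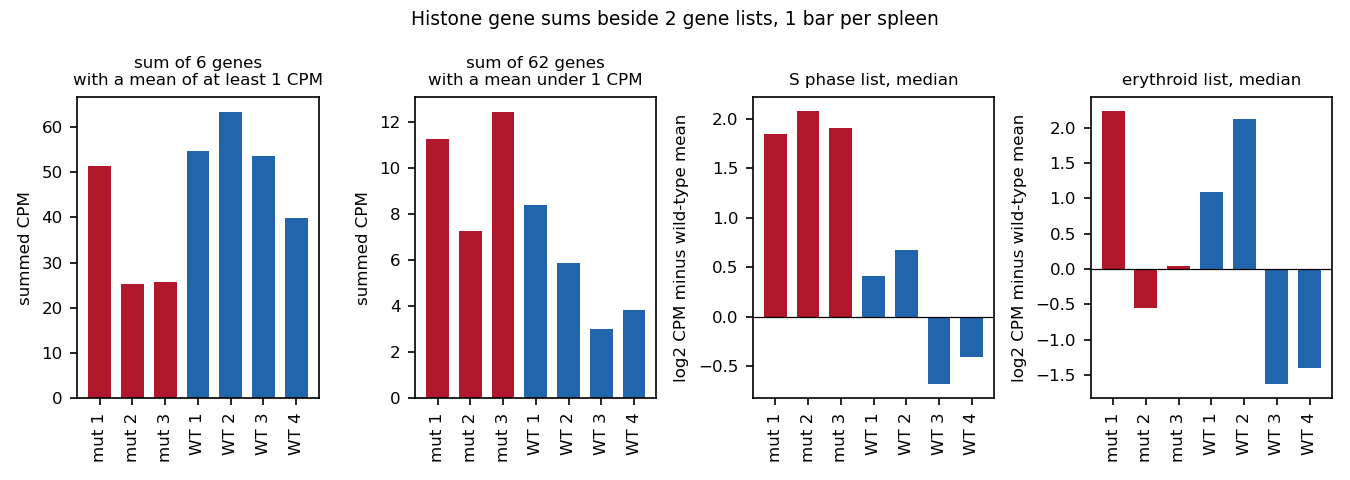
Bars, 1 per spleen (red for 3 mutant, blue for 4 wild-type spleens), of the summed CPM of the 6 histone cluster genes averaging 1 CPM or more, the summed CPM of the other 62, and the medians of the S phase and erythroid lists as log2 CPM minus the wild-type mean. The second sum and the S phase medians are higher in wild type 1 and 2 than in wild type 3 and 4, and the erythroid median is highest in mutant 1 and wild type 2.

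Many histone genes lie head to head in pairs of 1 H2A and 1 H2B gene that share a promoter, and 11 such pairs were found, with 171 to 304 bases between the genes. The partners differed widely in counts. Hist2h2ac had 25 counts over all spleens and Hist2h2be 5123, while Hist1h2ac had 10 and Hist1h2bc 3200. In the Hist3 cluster the H2A partner held the counts, with 1447 for Hist3h2a and 20 for Hist3h2bb-ps, a pseudogene by its symbol. The H2B gene had more counts than its H2A partner in 6 pairs, fewer in the others but Hist1h2aa and Hist1h2ba, both at 0. The region between Hist1h2ac and Hist1h2bc is shown because the genes on its sides, 238 bases apart, differ so widely in counts. It runs from 250 bases before to 50 bases after the Hist1h2ac start (RefSeq, GRCm38.p6, chr13:23683910-23684209, minus strand), with ATGCAAAT, CCAAT or ATTGG, and TATAAA in capitals.

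Hist1h2ac promoter: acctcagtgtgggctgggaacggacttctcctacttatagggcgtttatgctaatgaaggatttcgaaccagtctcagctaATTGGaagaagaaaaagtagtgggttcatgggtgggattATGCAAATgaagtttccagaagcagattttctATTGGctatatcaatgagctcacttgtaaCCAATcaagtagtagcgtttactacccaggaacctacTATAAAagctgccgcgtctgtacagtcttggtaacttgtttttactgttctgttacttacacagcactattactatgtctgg

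Among 62 such promoter windows, matched by symbol for 61 of the 68 genes, the octamer ATTTGCAT on either strand was in 7 of 17 H2A and 7 of 17 H2B windows (41.2% each) and in no H1, H3 or H4 window (0% in each class). Over all 32851 promoters of the table it was in 1.74%. The word CCAAT on either strand was in every H1, H2A, H2B and H3 window but in 3 of 12 H4 windows (25.0%), beside 37.4% of all promoters. TATAAA on either strand was in 56.5% of the histone windows and 13.6% of all. These are counts of letters and show no binding.

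**Figure D4:**
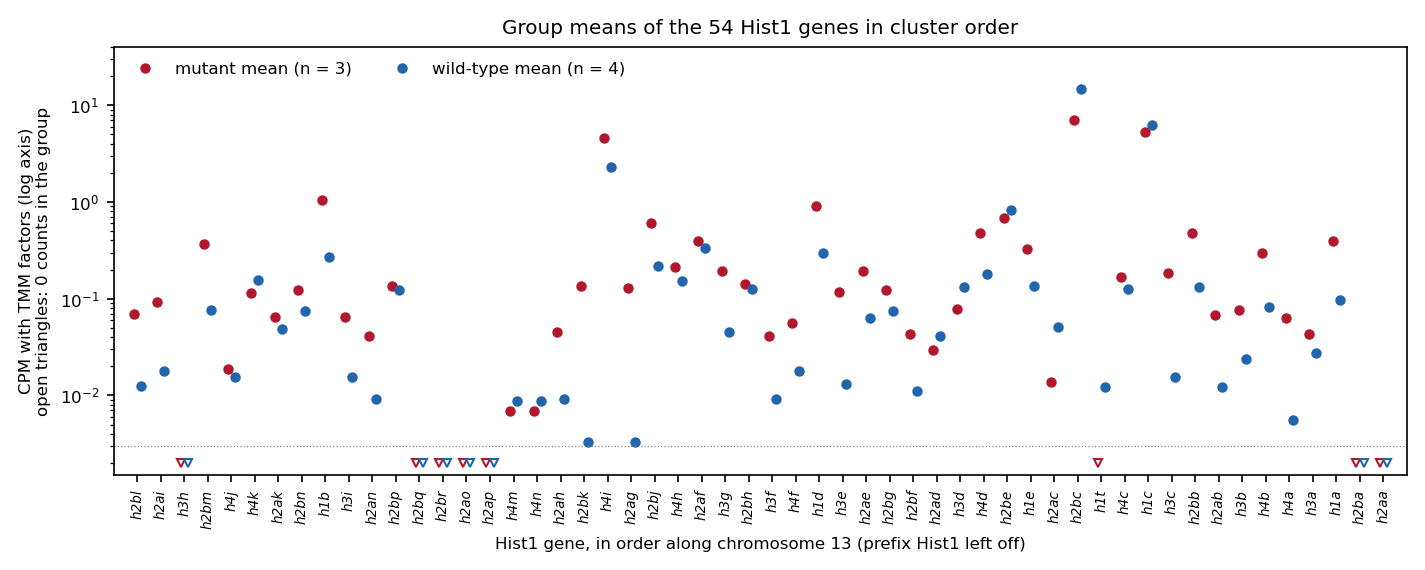
Group means of CPM (log axis) for the 54 Hist1 genes in their order along the chromosome, mutant (red, n = 3) left of wild type (blue, n = 4) for each gene, with open triangles for groups at 0 counts. Hist1h2bc, Hist1h1c and Hist1h4i hold the highest CPM of the cluster, on a scale that is not set per length.

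Most of the listed factors that make and handle histone messages were higher in the mutant. Of 27 genes for transcription and processing of histone mRNA, 17 rose and 1 fell, with a median log2 fold change of 0.89, beside the 28.5% and 28.9% called in each direction over all genes. The other 9 were not called, among them Lsm10, Lsm11, Zfp473 and Hinfp (edgeR adjusted p = 0.134, 0.0579, 0.0749 and 0.543). Npat, the coactivator of the histone loci, stood at 78.0, 81.3 and 73.0 CPM in the mutant, against 42.0, 45.5, 34.5 and 36.6 CPM in wild type, so the groups were well apart (log2 fold change 0.97, SE 0.14, edgeR adjusted p = 9.86e-04). Casp8ap2, a component of histone locus bodies, rose by 0.89 on the log2 scale (SE 0.14, edgeR adjusted p = 0.00165). Slbp stood at 201.6, 262.4 and 198.4 CPM in the mutant, against 132.4, 178.3, 70.8 and 95.7 CPM in wild type, with every mutant above every wild-type spleen (log2 fold change 0.89, SE 0.30, edgeR adjusted p = 0.0373). Its call was lost on leaving out mutant 2 (0.71, adjusted p = 0.149), mutant 3 (adjusted p = 0.0660), wild type 1 (adjusted p = 0.0649), wild type 3 (adjusted p = 0.0620) or wild type 4 (adjusted p = 0.0947).

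The processing genes that rose with the smallest p were Ncbp1, a cap-binding subunit, Supt16, a subunit of the FACT complex, and Cstf2, a cleavage factor, with log2 fold changes of 1.34, 1.33 and 1.32. The gene that fell was Mif4gd, whose product binds Slbp and promotes translation of histone mRNA. It stood at 54.4, 44.4 and 48.6 CPM in the mutant, against 140.5, 138.6, 163.7 and 116.0 CPM in wild type (log2 fold change -1.51, SE 0.16, edgeR adjusted p = 3.53e-04). It thus went against the other called genes of its list.

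Of 26 histone chaperones, 24 rose and none fell (0 of 26), with a median log2 fold change of 1.32. Supt16 is counted in this list as well as in the processing list. Nasp, which holds newly made H3 and H4, stood at 301.6, 396.8 and 327.0 CPM in the mutant, against 90.7, 92.1, 67.1 and 76.3 CPM in wild type (log2 fold change 2.07, SE 0.17, edgeR adjusted p = 1.99e-04). Npm1 and Npm3, of the nucleoplasmin family, had log2 fold changes of 2.16 and 1.94 (edgeR adjusted p = 2.99e-04 and 2.17e-04). In all 3 genes every mutant spleen was above every wild-type spleen.

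Of 11 tested replacement histone genes, 7 rose and 1 fell, with a median log2 fold change of 1.08. H2afz, which encodes the variant H2A.Z, stood at 621, 941 and 821 CPM in the mutant, against 220, 232, 147 and 236 CPM in wild type (log2 fold change 1.93, SE 0.22, edgeR adjusted p = 4.71e-04). H2afx, whose product is phosphorylated at DNA breaks, stood at 80.2, 143.0 and 97.1 CPM in the mutant, against 42.7, 69.6, 21.5 and 28.4 CPM in wild type (log2 fold change 1.398, SE 0.40, edgeR adjusted p = 0.0194), and was not called without mutant 2 (1.09, adjusted p = 0.0922) or wild type 4 (1.25, adjusted p = 0.0546). Both genes were higher in every mutant spleen than in every wild-type spleen. Both genes that encode replacement H3 were measured: H3f3b had a log2 fold change of 1.13 (SE 0.17, edgeR adjusted p = 0.00112), and H3f3a one of 0.28 (SE 0.17, edgeR adjusted p = 0.194). H2afv, a second H2A.Z gene, and Cenpa, the centromere histone, rose by 1.08 and 1.24 on the log2 scale. H1f0, the replacement linker histone, stood at 34.6, 40.5 and 113.0 CPM in the mutant, against 21.5, 21.9, 17.2 and 31.8 CPM in wild type. Mutant 3 was far above the rest, and the log2 fold change was 1.44 (SE 0.43, edgeR adjusted p = 0.0215). Its call was lost without wild type 1 (adjusted p = 0.0544), wild type 3 (adjusted p = 0.0590) and wild type 1 and 2 together (adjusted p = 0.122). The gene that fell was H2afy2, a macroH2A gene, with a log2 fold change of -1.32 (edgeR adjusted p = 0.0198), and without mutant 1 no gene of the list was called lower (0 by edgeR).

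Genes of DNA replication had 35 of 40 S phase members higher in the mutant and none lower (0 of 40), with a median log2 fold change of 1.89. Pcna, the sliding clamp of DNA polymerases, stood at 749.7, 1068 and 783 CPM in the mutant, against 292.3, 380.6, 156.4 and 183.5 CPM in wild type (log2 fold change 1.78, SE 0.33, edgeR adjusted p = 0.00280). Ung, Rfc3 and Rfc5 had the smallest p of the list, with log2 fold changes of 2.26, 1.83 and 1.87. Of 26 genes of G2 and mitosis, 18 rose and none fell (0 of 26), with a median of 1.78, and Bub1b, Cdc20 and Ttk were first by p. Without mutant 2 the count of higher calls was 11. Mki67, a marker of dividing cells, was not called: it stood at 2113, 1740 and 1702 CPM in the mutant, against 1056, 1981, 246.5 and 308.9 CPM in wild type. Wild type 2 was within the mutant range for this gene.

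RNAs known to lack a poly(A) tail were listed for comparison with the histone messages. Of 32 listed 21 were in the table and 10 were tested, of which 1 rose, the small nucleolar RNA gene Snord22 (log2 fold change 1.69), and none fell (0 of 10), while without mutant 3, 2 were called lower. The median log2 fold change was -0.22. Rn45s, the ribosomal RNA precursor, stood at 714.4, 569.3 and 1815 CPM in the mutant, against 1523, 999.1, 1450 and 1127 CPM in wild type. Its values overlapped between the groups, with mutant 3 the highest, and the part of RNA without a poly(A) tail in the histone counts was not tested.

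**Figure D5:**
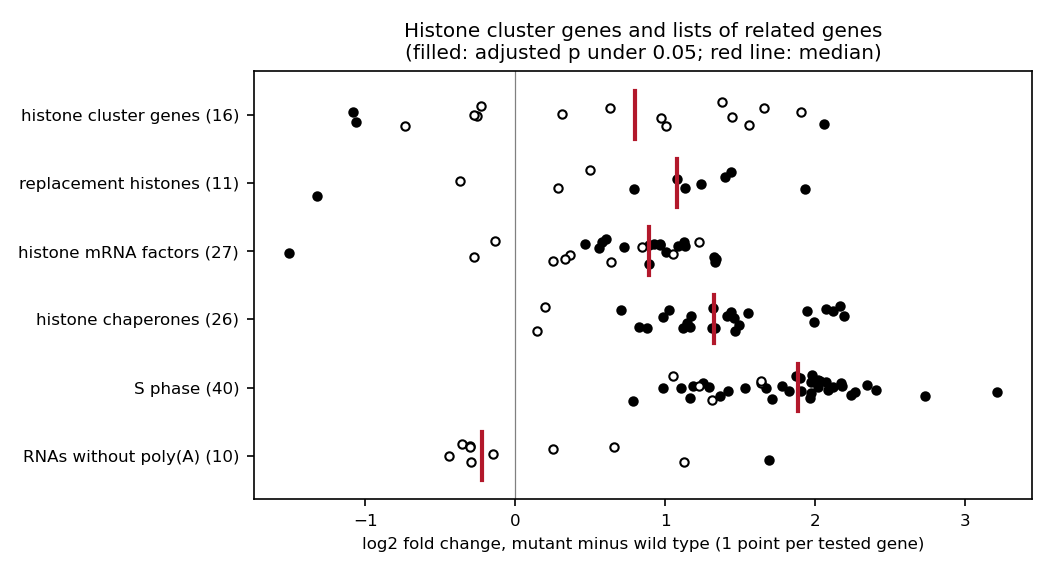
Log2 fold changes, mutant minus wild type, of each tested gene (1 point per gene, filled where adjusted p was under 0.05, red line at the median) for the histone cluster genes and 5 lists of related genes. The histone cluster genes spread from -1.08 to 2.06 around a median of 0.80, while the S phase list lies wholly above 0 with a median of 1.89.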

How the data were processed

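The authors deposited raw counts per gene (mm10) for 7 spleen libraries. The submitters' processing notes name TopHat2 2.0.12, bcl2fastq 2.17.1.14, Subread 1.4.6 with featureCounts, and edgeR. Strand use and the treatment of reads with several positions are not stated in the notes or labels. The deposited CPM table was not used. Counts were fitted with edgeR 4.0.16 (R 4.3.3; quasi-likelihood test, TMM factors, filterByExpr, group as the only term) over all 24062 genes, of which 15188 passed the filter, with p-values adjusted by the Benjamini-Hochberg method and called under 0.05. The SE is the log2 fold change over the square root of F. List medians per library used log2 CPM with a prior count of 2. The histone genes and the lists were chosen with earlier results of these data known. Named genes were the highest 4 of each histone class, every called member, testis, Hist3 and Hist4 genes, and up to 3 per related list and direction with the smallest p beside preset ones. Other genes were chosen after their values were seen, among them examples of untested genes. Marker lists of cell types are given by counts only. The 15 alternatives covered normalization, filters, DESeq2 1.42.0, limma-voom (limma 3.58.1), a replicate block and left-out libraries. The fit was tested on simulated data. Stem-loops, poly(A) signals and promoter words were searched in GENCODE vM21 transcripts and the RefSeq promoter table.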

Additional observations from a re-analysis of the deposited data

Results flagged for a closer look

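Among the 4 wild-type spleens, 3 histone cluster genes had 1 sample far from the others. The gap between the extreme spleen and its nearest neighbour, as a share of the range, was 0.882 for Hist1h1d (wild type 1, high), 0.886 for Hist2h2be (wild type 4, low) and 0.858 for Hist2h2bb (wild type 1, high), each above Dixon's critical value for 4 samples. In all, 25 genes and sums were examined this way, and chance alone passes about 5% of them.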

How the results depend on the processing

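The main counts were 1 gene called higher and 2 called lower of 16 tested. Higher calls numbered 0 with library size alone, 7 with no filter on low counts (of 61 tested), 0 when genes had to average 1 CPM or more (6 tested), 2 with DESeq2, 2 with limma-voom, 0 with a replicate block and 6 without wild type 1 and 2. Leaving out 1 spleen gave 0 to 5. The fit without wild type 1 and 2 tested 20 genes, and fits without 1 spleen tested 14 to 20. Lower calls numbered 3 with RLE size factors, library size alone, genes averaging 1 CPM or more and DESeq2, the third being Hist2h2be, 0 with a replicate block and 0 without wild type 1 and 2, and 0 to 4 with 1 spleen left out. In the same fits 40.1% (block), 38.3% (without wild type 1 and 2) and 45.5% (no filter) of all genes were called. The replicate numbers do not pair the spleens, since same-numbered deviations correlated at 0.0421, -0.1858 and 0.1014 and not every spleen correlated best with its own number. With the block, 11 of the histone mRNA processing genes were called higher, against 17 without it. The median log2 fold change was 0.80, 0.45 to 1.23 with 1 spleen left out, -0.55 for genes averaging 1 CPM or more and 1.84 without wild type 1 and 2. Tested genes whose groups did not overlap numbered 4, 11 without wild type 1 and 2, and 4 to 9 with 1 spleen left out. The log2 ratio was 1.53 for the H4 sum and 1.59 for the sum of genes under 1 CPM without wild type 1 and 2. Values that changed sign were Hist3h2ba, 0.57 without wild type 1 and 2 and -0.75 to 0.13 with 1 spleen left out, Hist1h2af, -0.20 to 1.43, and Hist1h1c, -1.16 to 0.13. The filters test fewer or more genes, and leaving spleens out removes samples; the cause of the other changes was not tested. Library size alone shifted the median of all genes to -0.26, with 38.1% of calls higher against 49.7%. The 52 untested genes, at most 77 counts each, failed a filter that looks at the level in single spleens as well as at the total. Hist1h1e was tested on 56 counts, while Hist2h4 with 77 counts was not.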
